A study of Macaca mulatta with 2 samples.

Results

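Genes of purinergic signalling, the use of ATP, its breakdown products and adenosine as signals between cells, were examined in the RNA of macaque optic nerve. They were chosen by symbol, as a fixed set of 10 genes, and 9 of the 10 had a row among the 16684 genes of the deposited table. *ENTPD1* had no row under this symbol and was not analysed here. RNA was sequenced in bulk from optic nerves of wild-type, untreated *Macaca mulatta*, collected postmortem, in 1 condition with 2 libraries, named Rep1 and Rep2. The study's methods name a single adult male as their source, whereas the deposited design speaks of different animals. Whether the spread between the libraries includes that between animals is therefore not known. The values are transcripts per 1000000 (TPM), the reads of a gene divided by its length and given as a share of the library. There is no second condition, so no groups were compared and no p-value was computed. Differences between the libraries below are the spread between replicates.

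ATP leaves cells through channels such as pannexin hemichannels or in vesicles. Outside the cell it opens P2X receptors, which are ion channels, and with ADP and other nucleotides it activates P2Y receptors, which couple to G proteins. Ectoenzymes then cut it down to AMP and adenosine, which acts on its own G protein-coupled receptors until it is taken up or deaminated. In the central nervous system this signalling is known for guiding microglial processes to injury and for communication between astrocytes, oligodendrocytes and vessels. In the optic nerve head it has been studied for the response of glia to stretch.

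The libraries differed strongly. The optic nerve was recognisable in both, with all 7 oligodendrocyte markers and all 7 astrocyte markers above 0. However, Rep1 had less of them, with all 14 lower and the astrocyte markers summing to 1098 TPM against 7321 TPM in Rep2. Photoreceptor markers were also present in Rep1, where *GNAT1* stood at 2763 TPM against 1.56 TPM in Rep2, and *CRX* at 9.76 TPM while it was listed at 0 in Rep2. Other photoreceptor markers, named after their values were seen, were low in both libraries. *PDE6A* had 3.15 against 0.0713 TPM, *RCVRN* 2.80 against 0.912 TPM, *PDE6B* 3.56 against 2.49 TPM and *NRL* 3.40 against 2.17 TPM, whereas *SAG* had 1.74 TPM in Rep1 and 1.82 TPM in Rep2. Of 5 neuronal markers, 2 were lower in Rep1, 2 were higher and *SLC17A6* was listed at 0 in both libraries, with sums of 1896 TPM and 22.3 TPM. *CSPG4*, a marker of oligodendrocyte precursors, and *VWF*, a marker of endothelial cells, were listed at 0 in Rep1. The part of these other cells in the results below was not tested. Among the 14693 genes that were above 0 somewhere, the median difference, Rep1 minus Rep2, was -1.07 on the log2(TPM + 1) scale. Rep1 was also shallow. From the ratios of the values, a single read raised the TPM of a gene 17.2 times more in Rep1 than in Rep2, and the smallest whole read numbers compatible with the table summed to 827363 reads in Rep1 and 13361797 reads in Rep2. These read numbers are lower bounds, and so are those given for single genes below.

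All 9 genes were above 0 in Rep2 and all 9 were lower in Rep1, where 5 of them were listed at 0. Each was at least 2-fold lower in Rep1 on the log2(TPM + 1) scale. In the background, 75.9% of those 14693 genes were lower in Rep1, 51.3% were at least 2-fold lower, 14.8% were at least 2-fold higher, and 30.2% were listed at 0 there. Over all listed genes 38.5% were at 0 in Rep1 and 12.5% in Rep2. A share matched for level was taken over the 200 genes nearest to each gene in Rep2. It was 52.5% at 0 in Rep1 for *PANX1*, 43.5% for *ENTPD2*, 42% for *ADORA3*, 39.5% for *P2RY1* and 34.5% for *ADORA2A*. For the genes above 0 in both libraries it ran from 0.5% for *NT5E* to 26.5% for *ADORA1*. Restricted to the 11754 genes whose mean reached 1 TPM, as it did for each of the 9, the background was 71.9% lower in Rep1, 58.7% at least 2-fold lower, 18.2% at least 2-fold higher and 15.9% listed at 0. The median difference of the 9 genes was -2.18 on this scale, beside -1.07 over the 14693 genes and -1.52 over the 11754 genes. Scaling the libraries by the median of ratios, which raised Rep1 2.28-fold against Rep2, left 9 genes lower in Rep1 and 7 of them at least 2-fold lower. The exceptions were *P2RX4*, with a log2 difference of -0.42, and *ADORA1*, with -0.16. Under this scaling 64.8% of the 14693 genes were lower in Rep1, 33.8% at least 2-fold lower and 23.7% at least 2-fold higher, and of the 11754 genes 58.5%, 40.2% and 28.8%. The medians were then -1.74 for the 9 genes and -0.38 for the 14693 genes. Summed over the 9 genes, the level was 18.3 TPM in Rep1 and 151 TPM in Rep2.

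**Figure D1:**
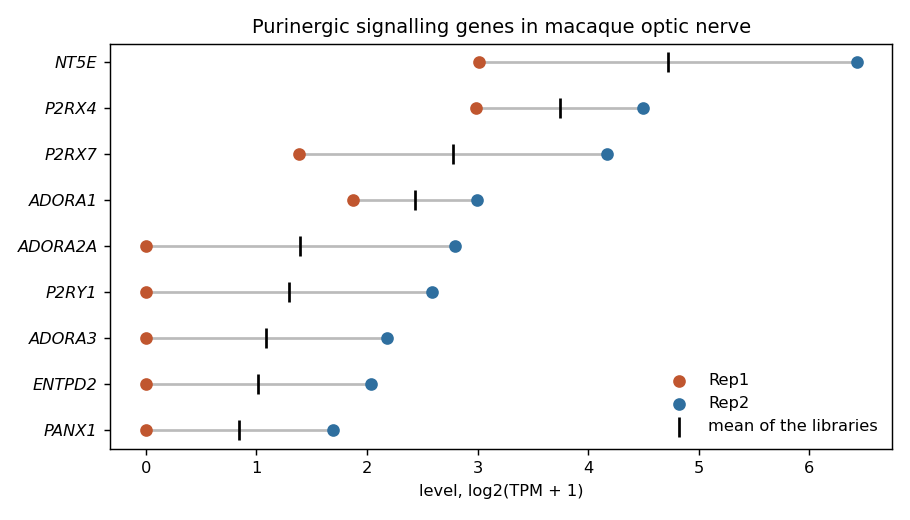
Levels of the 9 purinergic signalling genes on the log2(TPM + 1) scale, with an orange point for Rep1, a blue point for Rep2 and a black bar for their mean. *NT5E* had the highest mean, every gene was lower in Rep1, and *ADORA2A*, *P2RY1*, *ADORA3*, *ENTPD2* and *PANX1* were listed at 0 in Rep1.

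The ectoenzymes come first because they held the highest level. *NT5E* encodes the ecto-5'-nucleotidase CD73, which turns extracellular AMP into adenosine, and occupies bases 87753568 to 87799244 of chromosome 4 in the Mmul_10 assembly, minus strand. It measured 7.10 TPM in Rep1 against 85.3 TPM in Rep2, a mean of 46.2 ± 55.3 TPM (SD, n = 2), at percentile 78.8 of the genes above 0. These values rested on at least 7 and 1445 reads. The difference, Rep1 minus Rep2, was -3.41 on the log2(TPM + 1) scale, and the exact 95% interval of the fold, Rep2 over Rep1, ran from 5.82 to 29.9, for counting error only. *NT5E* was thus the highest of the 9 genes in each library, but its libraries differed by more than counting error gives. *ENTPD2*, on chromosome 15 from 1164068 to 1170073, encodes an enzyme that removes the outer phosphate of ATP and so favours the formation of ADP. It was listed at 0 in Rep1 and at 3.10 TPM in Rep2, where it rested on at least 79 reads. In Rep2 *NT5E* was 27.5 times higher than *ENTPD2*, a ratio that Rep1 could not give.

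The receptors for nucleotides come next. *P2RX4* and *P2RX7* lie beside each other on chromosome 11, from 121049117 to 121073696 and from 120969952 to 121026861, both on the plus strand. P2X4 channels are opened by low ATP, while P2X7 needs high ATP and is known for its role in the release of interleukin-1β by microglia and macrophages. *P2RX4* measured 6.91 TPM in Rep1 against 21.6 TPM in Rep2, a mean of 14.3 ± 10.4 TPM (SD, n = 2), from at least 5 and 269 reads. The fold between the libraries was 3.13, with an exact 95% interval from 1.33 to 9.72. The 2.28-fold by which median-of-ratios scaling raised Rep1 lies within this interval. *P2RX7* measured 1.62 TPM in Rep1 against 17.0 TPM in Rep2, a mean of 9.33 ± 10.9 TPM (SD, n = 2), from at least 3 and 543 reads. Its fold was 10.5, with an exact 95% interval from 3.59 to 51.2. *P2RX4* was above *P2RX7* in each library, by a ratio of 4.27 in Rep1 and 1.27 in Rep2.

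These channels belong to a family of 7, all of which were listed. In Rep2 *P2RX4* took 50.0% of the summed TPM of the family and *P2RX7* took 39.4%, together 89.4%. The next was *P2RX1*, known from smooth muscle and platelets, at 2.98 TPM. In Rep1 no other P2X gene was above 0. Family members could share reads where their sequences are identical, so coding sequences were compared between paralogs. The longest run that *P2RX4* shared with *P2RX3* was 22 bases, and with *P2RX7* 16 bases. Not every pair of paralogs is reported here, and a longer run than these was found among the pairs left out. The run shared by *P2RX4* and *P2RX7*, the channels with the highest levels of the family, is printed as an example, from RefSeq transcripts of Mmul_10, 5′ to 3′ in the coding direction, with the shared run in capitals and 20 bases of coding sequence on each side. Positions count from 1 at the first base of the start codon.
*P2RX4*, coding bases 804 to 859: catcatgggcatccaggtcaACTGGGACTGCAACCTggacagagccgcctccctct
*P2RX7*, coding bases 750 to 805: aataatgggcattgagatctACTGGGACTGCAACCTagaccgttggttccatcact
The capitals span 16 bases, so a read longer than the run would reach into the flanks.

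*P2RY1*, on chromosome 2 from 55112148 to 55117140, encodes a receptor for ADP that raises intracellular calcium and carries calcium waves between astrocytes. The table lists it at 0 in Rep1, whereas Rep2 gave 5.01 TPM from at least 271 reads. At this level Rep1 would have held at least 15.8 reads. A count of 0 in Rep1 allows up to 3 reads, or 0.954 TPM, so the level was at least 5.26-fold lower in Rep1 as far as counting error goes. Among the 200 genes nearest in Rep2 level, 39.5% were likewise listed at 0 in Rep1. Amplified copies of a molecule are not independent reads, so these limits and the intervals above cover counting error only.

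Of the 8 P2Y genes listed, *P2RY12* was the highest. This receptor for ADP is a marker of resting microglia. It gave 0.725 TPM in Rep1, from at least 1 read, whereas Rep2 gave 15.0 TPM from at least 355 reads. Their ratio was 20.7, with an exact 95% interval from 3.68 to 818. In Rep2 *P2RY12* took 50.0% of the summed P2Y level, *P2RY2* 22.0% and *P2RY1* 16.8%. *P2RY2*, a receptor for ATP and UTP, gave 6.58 TPM in Rep2 but no level above 0 in Rep1, where a count of 0 allows up to 1.36 TPM. *P2RY13*, *P2RY11*, *P2RY6* and *P2RY14* stood between 0.484 and 1.16 TPM in Rep2, and *P2RY4* was listed at 0 in both libraries.

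Microglia and macrophages express *P2RX4*, *P2RX7*, *P2RY12* and *ADORA3*, so their markers are given beside these genes. Of 10 such markers, 8 were lower in Rep1 and 2 were higher, with a sum of 246 TPM in Rep1 and 609 TPM in Rep2. *TMEM119* was listed at 0 in Rep1 and at 16.4 TPM in Rep2. The highest marker by its mean, *C1QB*, had 30.3 TPM in Rep1 against 173 TPM in Rep2, and the lowest, *CX3CR1*, 0.947 against 4.45 TPM. The 2 markers that were higher in Rep1, named after their values were seen, were *AIF1*, with 113 against 64.5 TPM, and *PTPRC*, with 3.74 against 2.45 TPM. Among the 8 lower markers, *CSF1R*, also named after its value was seen, had 61.3 TPM in Rep1 against 62.2 TPM in Rep2. The part of these cells in the differences of the receptor genes was not tested. In bulk RNA, fewer cells of a type and less RNA per cell cannot be told apart.

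**Figure D2:**
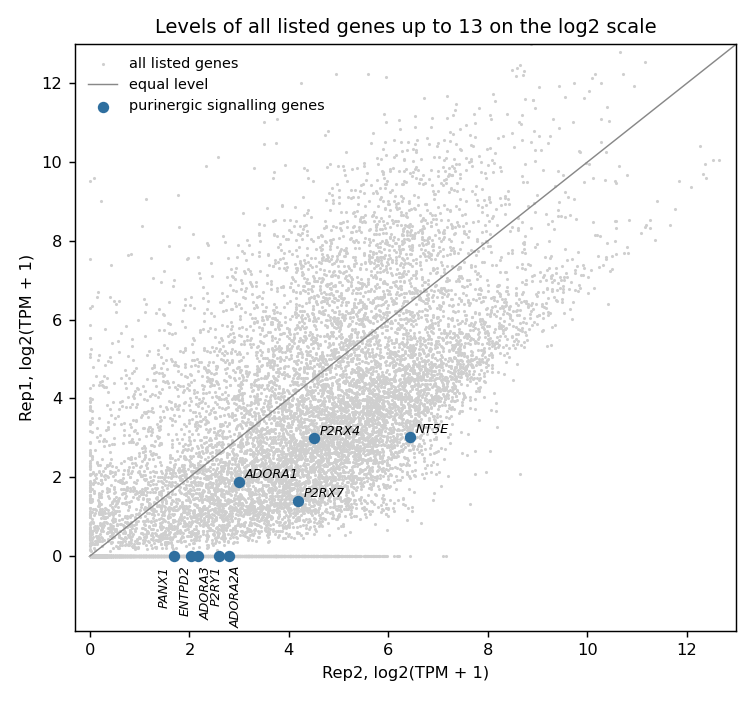
Level of every listed gene up to 13 on the log2(TPM + 1) scale, Rep2 on the horizontal and Rep1 on the vertical axis, in grey, with the 9 purinergic signalling genes in blue and a line of equal level. All 9 lie below the line, and the 5 genes listed at 0 in Rep1 lie on the horizontal axis among many other genes.

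The members of the adenosine receptor family were low. *ADORA1*, on chromosome 1 from 60626462 to 60667432, encodes a receptor that inhibits adenylyl cyclase. It measured 2.67 TPM in Rep1 against 6.99 TPM in Rep2, a mean of 4.83 ± 3.06 TPM (SD, n = 2), from at least 3 and 135 reads. The fold between the libraries was 2.62 with an exact 95% interval from 0.877 to 12.9, so a difference beyond counting error was not detectable with the smallest read numbers. *ADORA2A*, on chromosome 10 from 28822541 to 28841340, encodes a receptor that stimulates adenylyl cyclase and dampens immune cells. It was listed at 0 in Rep1 and at 5.93 TPM in Rep2. *ADORA3*, on chromosome 1 from 112688164 to 112692039, encodes a receptor that also inhibits adenylyl cyclase. It was listed at 0 in Rep1 and at 3.53 TPM in Rep2.

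The reads behind these zeros differ in what they allow. For *ADORA2A* the smallest read number in Rep2 was 5, so Rep1 need have held only 0.291 reads at the same level. With Rep1 at 0, any factor common to the reads and the length cancels, so the true number may be well above 5. For *ADORA3* it was 26, which gives 1.51 reads. Whether the libraries differed for *ADORA2A* and *ADORA3* beyond counting error therefore cannot be decided from these lower bounds. The remaining receptor of the family, *ADORA2B*, which answers to high adenosine, was outside the set of 10 genes. It stood at 11.2 TPM in Rep2, from at least 353 reads, and was listed at 0 in Rep1, where a count of 0 allows up to 1.64 TPM, so it was at least 6.85-fold lower there. In Rep2 *ADORA2B* held 40.6% of the summed level of the family, *ADORA1* 25.3%, *ADORA2A* 21.4% and *ADORA3* 12.7%. In Rep1 *ADORA1* was the sole adenosine receptor gene above 0.

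The longest identical run among these receptors lay between *ADORA1* and *ADORA3*, in a stretch that codes for the end of the last membrane-spanning helix, which is conserved in this class of receptors. The stretch is printed because both genes are low and a few reads, if shared between them, would change their values. Whether any reads were shared was not tested.
*ADORA1*, coding bases 1226 to 1287: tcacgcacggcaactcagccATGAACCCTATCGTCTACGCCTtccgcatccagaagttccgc
*ADORA3*, coding bases 809 to 870: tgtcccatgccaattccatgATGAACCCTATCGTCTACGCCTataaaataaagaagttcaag
The shared run of 22 bases is in capitals, so a read longer than the run would reach into the flanks. *ADORA3* lies inside *TMIGD3*, a protein-coding gene on the same strand, and 714 of its 1844 exon bases are also exon bases of *TMIGD3*, which had no row in the table. How reads in these bases were assigned is not stated, so the level of *ADORA3* is uncertain to that extent.

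*PANX1* encodes the pannexin channel through which ATP leaves cells, and lies on chromosome 14 from 87372311 to 87432075. It was listed at 0 in Rep1 and at 2.23 TPM in Rep2, from at least 107 reads, the lowest level of the 9 genes. At the level of Rep2, Rep1 would have held at least 6.23 reads. A count of 0 allows up to 1.07 TPM there, so *PANX1* was at least 2.08-fold lower in TPM as deposited. For *ENTPD2* the same figures were 4.60 reads, 2.02 TPM and at least 1.53-fold. Both bounds are below the 2.28-fold by which median-of-ratios scaling raised Rep1. Under that scaling neither zero shows a difference beyond counting error with the smallest read numbers. *PANX1* nevertheless made up 85.1% of the summed level of the 3 pannexin genes in Rep2, and none of them was above 0 in Rep1.

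**Figure D3:**
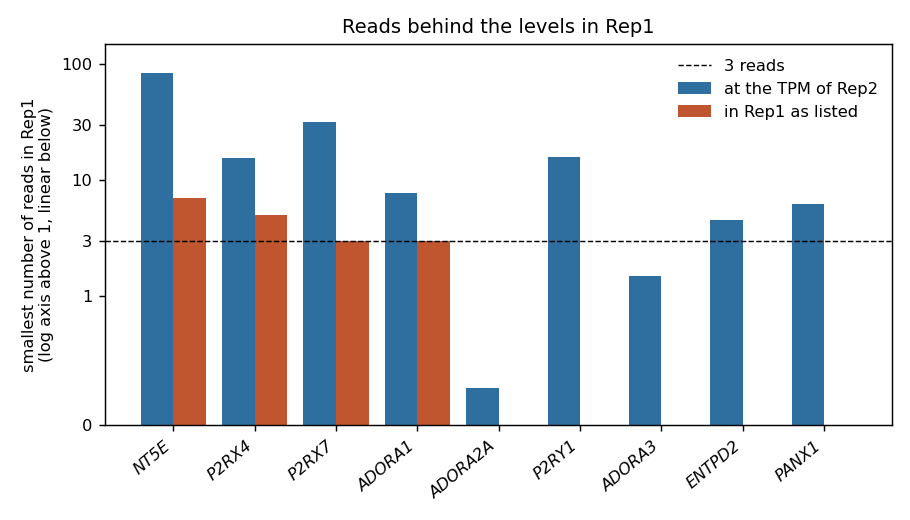
Smallest number of reads in Rep1 for each of the 9 genes as listed (orange) and as it would be at the TPM of Rep2 (blue), on an axis that is linear below 1 and logarithmic above it, with a dashed line at 3 reads. *P2RY1*, *PANX1* and *ENTPD2* have blue bars above the line and no reads in Rep1, whereas *ADORA2A* and *ADORA3* have blue bars below it. All bars are lower bounds, so a bar below the line does not show that the true number is low.

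Besides *ADORA3*, 5 of the genes share exon bases with a gene on the opposite strand, a protein-coding gene for *PANX1* and a long noncoding RNA for each of the others. The shared bases number 122 for *NT5E*, 665 for *PANX1*, 412 for *P2RX4*, 140 for *P2RX7* and 287 for *ADORA2A*. These partners had no rows in the table. The sources used here do not state whether the counting used strand. The study's methods describe fragmented cDNA and a library kit for DNA, and name no step that keeps the strand. Without strand, reads of a gene and its antisense partner cannot be told apart. *ENTPD2*, *P2RY1* and *ADORA1* share exon bases with no annotated gene.

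By the mean of log2(TPM + 1), the order of the levels was *NT5E*, *P2RX4*, *P2RX7*, *ADORA1*, *ADORA2A*, *P2RY1*, *ADORA3*, *ENTPD2* and *PANX1*. Of the 36 pairs of genes, 25 had the same order in both libraries, 10 were tied at 0 in Rep1, and *P2RX7* and *ADORA1* changed places. Neighbours in this order were set against the SD, over the libraries, of the difference between the genes. *P2RX4* was above *P2RX7* by 0.96 ± 0.90 on the log2 scale (SD, n = 2), the only one of the 8 neighbouring pairs to pass this SD, and it did not with a pseudocount of 0.1. *NT5E* was above *P2RX4* by 0.98 ± 1.34 (SD, n = 2), with differences of 0.03 in Rep1 and 1.93 in Rep2. *P2RX7* against *ADORA1* and *ADORA1* against *ADORA2A* also differed by less than their spread. In the remaining 4 pairs both genes were listed at 0 in Rep1, so that their difference could not pass this SD whatever the level in Rep2, and their order rests on Rep2. A level that is compared between genes depends on the gene lengths used. The lengths that the values imply were not those of the Mmul_10 annotation, with 0.084% of 3573 protein-coding genes having an exon length that is a multiple of the smallest implied length, so the order between genes of similar level is uncertain for this reason too.

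The other genes of the pathway were taken as lists by role, 38 of 39 genes having a row. Of these, 34 were above 0 in 1 library or both, with 31 lower and 3 higher in Rep1, and 19 were at least 2-fold lower and 2 at least 2-fold higher. Their median difference was -1.11 on the log2(TPM + 1) scale, beside -1.07 over the 14693 genes. In Rep1, 22 of the 34 were listed at 0. Of the 14693 genes, 75.9% were lower in Rep1, 51.3% at least 2-fold lower, 14.8% at least 2-fold higher and 30.2% listed at 0. After scaling by the median of ratios, 30 were lower and 4 higher in Rep1, with 15 at least 2-fold lower and 3 at least 2-fold higher. *ENPP1* was the gene that changed direction. Under this scaling 64.8% of the 14693 genes were lower, 33.8% at least 2-fold lower and 23.7% at least 2-fold higher. These shares are not matched for level. Among the 200 genes nearest in Rep2 level, the share at 0 in Rep1 depended on the gene. It ran from 11% for *ADA* to 84% for *SLC17A9* over the 22 genes listed at 0 in Rep1. For the genes above 0 in both libraries it ran from 0% for *ENPP2* to 41% for *LRRC8A*.

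By mean TPM the highest of these genes was *SLC29A1*, which encodes the equilibrative nucleoside transporter that takes up adenosine. It measured 12.5 TPM in Rep1 against 148 TPM in Rep2, from at least 28 and 5717 reads. It was higher than *NT5E* by a ratio of 1.76 in Rep1 and 1.74 in Rep2. *ADK*, whose product phosphorylates adenosine to AMP, measured 5.87 TPM in Rep1 against 48.6 TPM in Rep2. *ADA*, whose product deaminates adenosine, was listed at 0 in Rep1 and at 23.0 TPM in Rep2, where it rested on at least 451 reads, and it was at least 8.75-fold lower in Rep1. *PNP*, which acts on the inosine formed, was at 6.86 and 38.3 TPM. The 3 genes that went the other way were *DPP4*, *LRRC8A* and *AHCY*. *DPP4*, the membrane protein that binds adenosine deaminase, measured 31.3 TPM in Rep1 against 5.22 TPM in Rep2, 5.99 times higher with an exact 95% interval from 3.55 to 9.75. *LRRC8A*, a subunit of the volume-regulated anion channel, was 2.92 times higher in Rep1, with 10.7 against 3.66 TPM and an exact 95% interval from 2.08 to 4.01. *AHCY*, whose product frees adenosine from S-adenosylhomocysteine, was at 19.7 TPM in Rep1 and 1.64 times higher there than in Rep2, with an exact 95% interval from 1.11 to 2.35.

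Among the remaining ectoenzymes, *ENPP2* was the highest, with 11.2 TPM in Rep1 against 92.2 TPM in Rep2. Its product autotaxin is known mainly for making lysophosphatidic acid and is abundant in oligodendrocytes. *ENPP1*, whose product splits ATP into AMP and pyrophosphate, differed little as deposited, with 7.92 TPM in Rep1 against 8.29 TPM in Rep2, from at least 19 and 342 reads, but under that scaling it was higher in Rep1. *ENTPD5* was at 1.95 and 20.2 TPM, *ALPL* at 2.63 and 7.58 TPM, and *ENTPD3* was listed at 0 in Rep1 and at 4.79 TPM in Rep2. *ENTPD8* was listed at 0 in both libraries. Of the other genes for ATP release, *CALHM2* was the highest by mean TPM, though below *LRRC8A* in Rep1, with 3.10 TPM in Rep1 against 39.5 TPM in Rep2, whereas *SLC17A9*, the vesicular nucleotide transporter, had 0.228 TPM in Rep2 and nothing above 0 in Rep1.

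**Figure D4:**
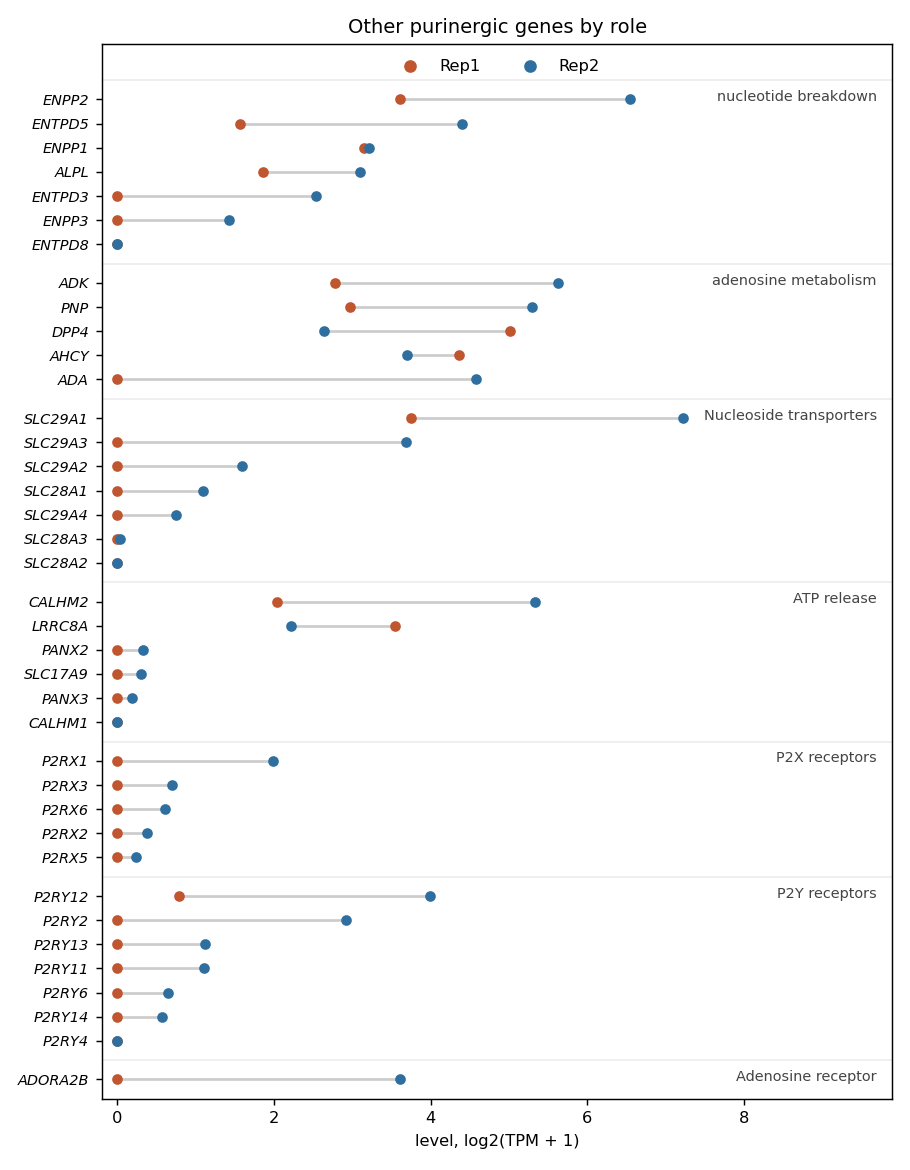
Levels of the 38 other purinergic genes on the log2(TPM + 1) scale, grouped by role and ordered by mean TPM within a role, with orange points for Rep1 and blue points for Rep2. Blue lies to the right of orange for 31 genes, while *DPP4*, *LRRC8A* and *AHCY* were higher in Rep1.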

How the data were processed

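Total RNA of macaque optic nerves was sequenced in 2 libraries (SMARTer v4 Ultra Low Input chemistry). The authors trimmed reads with Trim Galore 0.6.6 after FastQC 0.11.9, aligned them to Mmul_10 with STAR 2.7.1a, counted them with featureCounts 1.5.3 and deposited TPM values per gene and library. Gene lengths, strand setting, multi-mapping and read length are not given in the sources used here. Nothing pairs Rep1 and Rep2 with sample titles.

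TPM were used as deposited, with mean and SD, in Python 3.11 with numpy 2.4.6, pandas 2.3.3, scipy 1.17.1 and matplotlib 3.10.9. Differences were taken on log2(TPM + 1), which understates changes of low genes. Each value is a library constant times reads over length, so the smallest whole numbers were found by continued fractions, within a relative tolerance of 1e-11. The scale was set from the values alone. In a later comparison, in half-base steps, the annotated length was a multiple of the smallest length for 62.1% of 66 microRNA genes. In a simulation of 16684 genes, 83.7% of 15325 genes with reads got their exact read numbers and 0 got more. Intervals are exact binomial (95%), and a count of 0 was taken to allow 3 reads. Coordinates and coding sequences came from RefSeq for Mmul_10.

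The genes, role lists and marker lists were chosen with earlier results of these data known. The rule for naming took in all 10 genes, any gene of the role lists, genes sharing exon bases with one of the 10, and of each marker list the highest, the lowest and any marker at 0. The text names those it uses, and markers outside the rule are said to be chosen after their values were seen. The marker lists had these sums in Rep1 and Rep2: oligodendrocytes 45998 and 212246 TPM, their precursors 38.9 and 236 TPM, astrocytes 1098 and 7321 TPM, microglia and macrophages 246 and 609 TPM, endothelial cells 31.4 and 106 TPM, pericytes and smooth muscle 137 and 730 TPM, fibroblasts 1525 and 14821 TPM, and neurons 1896 and 22.3 TPM. The summed photoreceptor list and some comparisons between paralogs are not reported here. Alternatives were median-of-ratios scaling, leaving out the 10 most abundant genes, a pseudocount of 0.1, the geometric mean, single libraries and a background restricted to genes averaging 1 TPM or more.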

Additional observations from a re-analysis of the deposited data

How the results depend on the processing

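No paired analysis was possible because there is just 1 condition and hence nothing to pair. With a pseudocount of 0.1, the median difference, Rep1 minus Rep2, was -4.54 for the 9 genes and -3.00 for the other purinergic genes, and 0 neighbouring pairs were apart beyond their spread. Of the genes averaging 1 TPM or more, 15.9% were listed at 0 in Rep1, against 38.5% of all listed genes, because that set leaves out the lowest genes. The other 24 summary values and all 45 values of single genes moved by less than the limit set for them. For levels that limit is the SD of 2 libraries, which is wide, so this says little about stability. Leaving out 1 library always moves the mean of a gene by less than this SD, and so does taking the geometric mean. For single genes the outcome of these settings was therefore fixed in advance. The limit for counts was also wide. With a pseudocount of 0.1, the count of other purinergic genes at least 2-fold apart went from 21 to 31 without crossing it. In Rep1 alone, 25 of the 36 pairs had the order of the means, which did not cross it either. A single library gives no spread for neighbouring genes, and gave a median level of 0 to 5.93 TPM for the 9 genes. The depth of Rep1 limits every gene listed at 0 there.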
